A study of Mus musculus with 2 samples.

Results

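The 5 genes described here are the 3 D-type cyclins, Ccnd1, Ccnd2 and Ccnd3, and their 2 partner kinases, Cdk4 and Cdk6, out of 28692 genes in the deposited count matrix. They were chosen by name, as the complete set of mouse D-type cyclins and the kinases they bind, and each symbol matched 1 row of the matrix. The study grew neural stem cells from the postnatal subventricular zone, a neurogenic region beside the lateral ventricles, of C57/Bl6J mice. One library came from cultures given the vehicle DMSO and 1 from cultures given 1 µM of the oxysterol 20HC, and both were taken 3 days after the growth factors EGF and FGF had been removed. The treatment text of the control library also mentions 20HC, so its group was taken from its title and the series' design. Both libraries are cultures, with 1 library for each condition and no number of animals stated.

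The deposited matrix pools 14685 cell barcodes that end in 1 (10787, barcode set 1) or 2 (3898, barcode set 2), and nothing in the labels or files says which number belongs to which library. Barcodes were left without a condition, vehicle and 20HC were not compared, and the pooled matrix was treated as 1 sample with no test. After filtering, 13028 cells remained (9630 of set 1 and 3398 of set 2, medians of 2822 and 2888.5 unique molecular identifiers, UMIs, per cell), and 48 barcode sequences occurred in both sets. Levels are CPM, the gene's UMIs relative to all UMIs of the group on the usual CPM scale, and all intervals are 95% intervals that cover counting error only. The 5 genes were kept out of the clustering, so cells were not grouped by them, although genes that vary with them did take part.

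D-type cyclins are the regulatory subunits that extracellular signals induce in the G1 phase. They bind and activate CDK4 or CDK6, and the resulting kinase phosphorylates the retinoblastoma protein and its relatives, which frees E2F factors to switch on the genes of DNA replication. The cyclins have overlapping roles and differ in where they are expressed, and in the brain Ccnd2 is known for its part in the neurogenesis of the subventricular zone and hippocampus. CDK inhibitors of the INK4 family bind CDK4 and CDK6 directly.

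Of the promoters in the RefSeq table (GRCm38.p6), 3 of the 5 genes had an entry, Ccnd3, Cdk4 and Cdk6. The Cdk4 stretch is shown because it stands out in a count of letters: the stretch before the gene holds CACGTG, the E-box bound by Myc and Max, 4 times. The same letters occurred at least once in 1970 of 32851 promoter windows of that length (6.0%), and at least 4 times in 7 of them (0.0213%). CACGTG reads the same on both strands. Capitals mark CACGTG and 1 match to GGGCGG, the GC box, on the minus strand, a motif found in 32.6% of the windows. The stretch is chr10:127063285-127063533 on the plus strand and ends 1 base before the annotated gene.
Cdk4: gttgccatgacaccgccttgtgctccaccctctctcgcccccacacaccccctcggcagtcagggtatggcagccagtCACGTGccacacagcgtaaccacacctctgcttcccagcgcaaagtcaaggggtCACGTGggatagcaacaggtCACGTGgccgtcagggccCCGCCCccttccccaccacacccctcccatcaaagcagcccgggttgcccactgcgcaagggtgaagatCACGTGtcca
A match of letters is a description of this window and not a site. The Cdk4 window was picked for printing after its matches were seen. The same search found CACGTG once in the Cdk6 window and not in either Ccnd3 window. The other letters searched on both strands, GACCACCCA, TGACGTCA, TTTGGCGC, TTTCGCGC and TGACTCA, had no match in it.

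The 5 genes lie on 5 chromosomes in GENCODE M21 (GRCm38, the assembly called mm10), and all are protein coding. Ccnd1 (ENSMUSG00000070348) is at chr7:144929931-144939925 and Ccnd2 (ENSMUSG00000000184) at chr6:127125162-127152193, both on the minus strand. Ccnd3 (ENSMUSG00000034165) is at chr17:47505051-47599691, Cdk4 (ENSMUSG00000006728) at chr10:127063534-127067920 and Cdk6 (ENSMUSG00000040274) at chr5:3341485-3531008, all on the plus strand. Each overlaps at least 1 gene on the opposite strand, and the sources used here do not give whether strand entered the counting, so reads of such pairs may be mixed. The overlapping partner with most UMIs was Tspan31, which shares 641 bases with Cdk4 and had 4784 UMIs against 31714 of Cdk4 over all barcodes. Tspan31 was at 113 CPM in neuroblast-like and 131 CPM in astrocyte-like cells, where Cdk4 was at 1847 and 349 CPM. Oraov1 (LTO1 in the annotation), which overlaps Ccnd1, was at 12.5 CPM in OPC-like cells, where Ccnd1 was at 756 CPM.

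In the kept cells, Ccnd2 gave 62585 UMIs, Cdk4 30158, Ccnd1 4322, Cdk6 1693 and Ccnd3 1492. Cdk4 was detected in 73.5% of cells and Ccnd2 in 65.5%, against 17.1% for Ccnd1, 10.6% for Ccnd3 and 10.3% for Cdk6. Up to 76 UMIs of Ccnd2 and 22 of Ccnd1 were found in a single cell. The cells fell into 8 named classes and 2 unnamed clusters. Astrocyte-like cells made up 53.0% (6911), cycling-like cells 16.8% (2188), progenitor-like cells 11.6% (1505), OPC-like cells 5.27% (686, of the oligodendrocyte precursor lineage) and neuroblast-like cells 3.53% (460). The rest were 220 fibroblast-like, 159 ependymal-like and 35 microglia-like cells, and 338 cells of an unnamed cluster led by Car9; 1 other unnamed cluster is not described. The cycling-like class joins a cluster led by histone and S phase genes and one led by Cdc20 and other mitotic genes, and the name of the larger astrocyte-like cluster, led by Pcp4, rests on a narrow margin, with 1 astrocyte and 1 OPC marker among its 10 leading genes.

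**Figure D1:**
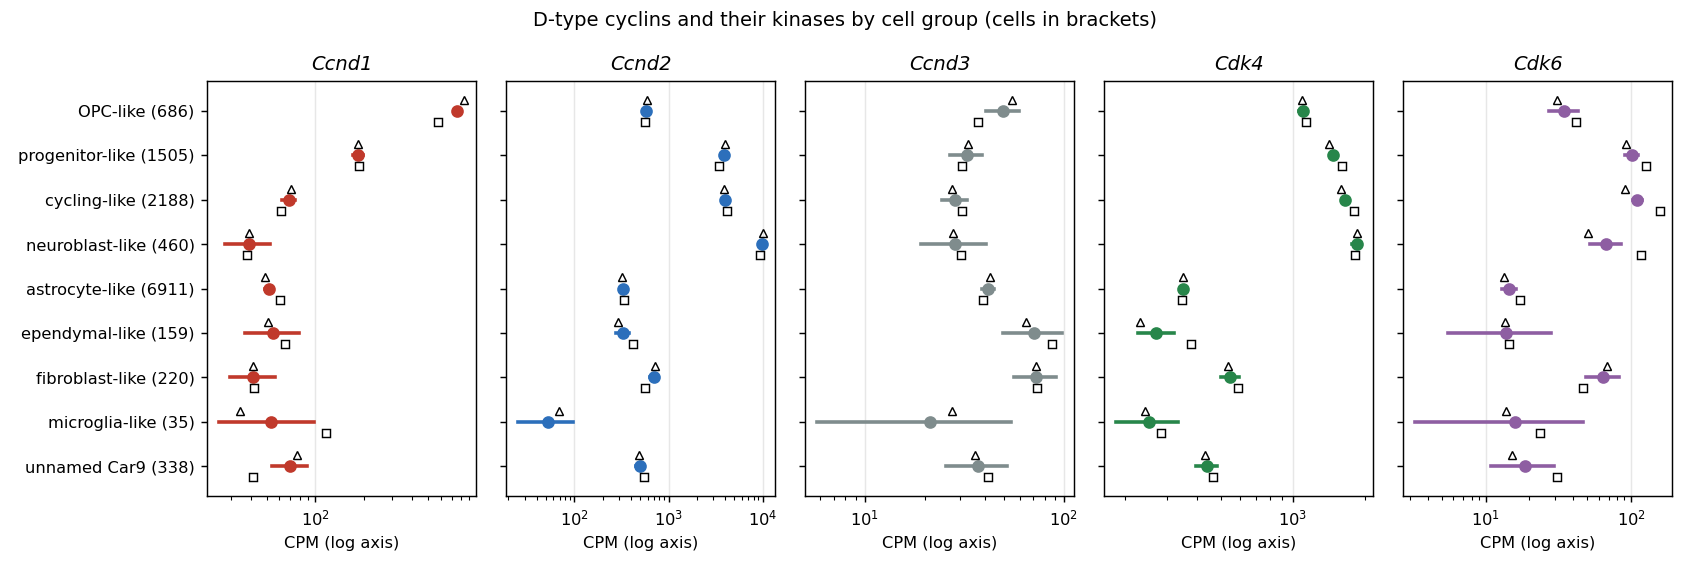
Level of each gene (CPM, log axis) in 9 cell groups. Filled circles with bars are the pooled value and its 95% counting interval, open triangles are barcode set 1 and open squares barcode set 2 (values of 0 are not drawn). Ccnd1 peaked in OPC-like cells at 756 CPM and Ccnd2 in neuroblast-like cells at 9902 CPM.

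Ccnd1, the cyclin best known as a target of growth factor signalling, had its highest level in OPC-like cells, which held 1694 of its 4322 UMIs. Its level was 836 CPM (interval 791 to 883) in their set 1 cells and 580 CPM (525 to 639) in set 2. In all other kept cells it was at 71.7 CPM in set 1 and 76.0 CPM in set 2, so both sets placed OPC-like cells far above the rest, and set 1 above set 2. Pooled, OPC-like cells were at 756 CPM (721 to 793) against 72.8 CPM in all other cells, a ratio of 10.4. Although left out of the clustering, Ccnd1 came right after Pllp and Bcas1 among the leading genes of the OPC-like cluster. That cluster also carried the cycling markers at a summed 3377 CPM, against 254 CPM in astrocyte-like and 12089 CPM in cycling-like cells, and their part in the Ccnd1 level was not tested across classes.

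Among the groups described, the next level of Ccnd1 was 184 CPM (170 to 199) in progenitor-like cells, 183 CPM in set 1 and 187 CPM in set 2, with an interval apart from that of OPC-like cells. The 5 cells with most Ccnd1 held 6.14% of the Ccnd1 UMIs of OPC-like cells and 5.09% of those of progenitor-like cells. The remaining groups lay between 38.8 CPM (neuroblast-like) and 69.8 CPM (Car9 cluster), each overlapping its neighbour in the order.

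By cells, 62.7% of OPC-like cells (58.9 to 66.3%, median 3095 UMIs) had a Ccnd1 UMI, against 28.7% of progenitor-like and 7.61% of neuroblast-like cells (5.36 to 10.4%, median 2213.5 UMIs). No class is known to lack Ccnd1, so the neuroblast-like share is the lowest seen and not a measured background, and the part of free RNA was not tested. In cells thinned to 1500 UMIs, the share was 46.8% in OPC-like, 20.0% in progenitor-like and 5.42% in neuroblast-like cells.

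Ccnd2 had its highest level in neuroblast-like cells. It was at 10056 CPM (9837 to 10279) in those of set 1 and 9441 CPM (9074 to 9819) in set 2, against 1380 and 1448 CPM in the other cells of each set. Neuroblast-like cells were led by Dlx6os1, Tubb3 and Dcx, which mark young neurons of the interneuron lineage. Cycling-like cells followed at 3985 CPM and progenitor-like cells at 3868 CPM (intervals 3939 to 4032 and 3804 to 3932). Their order differed between the sets: progenitor-like cells were at 4015 CPM in set 1 and 3450 CPM in set 2, and cycling-like cells at 3920 and 4147 CPM.

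Below them, fibroblast-like cells were at 694 CPM, OPC-like cells at 583 CPM (552 to 616) and the Car9 cluster at 497 CPM (453 to 545), with no overlap between neighbours. Astrocyte-like cells were at 325 CPM and ependymal-like cells at 326 CPM. Microglia-like cells had 53.2 CPM, from 10 UMIs in 35 cells. A Ccnd2 UMI was present in 99.8% of neuroblast-like, 98.0% of cycling-like, 49.7% of astrocyte-like and 20.0% of microglia-like cells (8.44 to 36.9%), the last with the highest median depth (5054 UMIs).

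Ccnd3 had a narrow range. This D-type cyclin is expressed in many tissues. Its highest levels were 72.2 CPM (56.3 to 91.2) in fibroblast-like and 70.8 CPM (49.6 to 98.0) in ependymal-like cells, and its lowest among the groups described 21.3 CPM (5.80 to 54.5) in microglia-like cells, from 4 UMIs. Every neighbour in its order overlapped the next, so the ranking resolves little beyond the ends. In fibroblast-like cells both sets gave nearly the same value, 72.0 CPM from 56 UMIs in set 1 and 72.8 CPM from 14 UMIs in set 2. The fibroblast-like class also carried pericyte markers at a summed 6624 CPM beside 9287 CPM of fibroblast markers, and their part in the Ccnd3 level was not tested.

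Cdk4, the more abundantly counted kinase, followed the order of Ccnd2 at its top. Neuroblast-like cells were at 1847 CPM, cycling-like at 1652, progenitor-like at 1468 and OPC-like at 1108 CPM, and none of these 4 intervals overlapped the next. The sets lay close together in neuroblast-like cells (1856 and 1821 CPM) and in astrocyte-like cells (350 and 346 CPM). At the bottom, astrocyte-like cells were at 349 CPM (341 to 357), above ependymal-like cells at 269 CPM (226 to 318), whose interval overlapped that of microglia-like cells at 250 CPM. The ratio of Cdk4 in OPC-like cells to all other cells (1.45) was under the fold limit used below.

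Cdk6, the other partner kinase, reached 110 CPM (103 to 118) in cycling-like and 101 CPM (90.8 to 112) in progenitor-like cells. Neuroblast-like cells had 67.2 CPM and fibroblast-like cells 63.9 CPM, each pair with overlapping intervals. OPC-like cells had 34.4 CPM and astrocyte-like cells 14.5 CPM. Cells with a Cdk6 UMI made up 26.0% of cycling-like, 9.91% of OPC-like and 4.18% of astrocyte-like cells.

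Each class of at least 200 cells was set against all other kept cells for every gene with at least 30 UMIs (13037 genes). A gene was called when its CPM differed 1.5-fold or more and each set gave that direction, with the other cells' CPM outside the class interval. These calls are descriptions of 1 pooled sample. In OPC-like cells Ccnd1 was called higher, as were 7.38% of all genes, and Ccnd2 lower (0.344 times), as were 18.8%. In neuroblast-like cells Ccnd2 (7.08 times), Cdk4 (2.44) and Cdk6 (1.54) were higher, against 11.1% of genes, and Ccnd1 (0.338) was lower, against 25.4%. Of these neuroblast-like log2 ratios, that of Cdk6 fell below 0 with doublets kept (-0.071) and without astrocyte-like comparison cells (-0.26), and that of Ccnd1 rose to 0.29 without phase genes in clustering. The class of that name held 181 cells with doublets kept, and 1549 cells, led by Mfng, without phase genes.

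In cycling-like cells Cdk6 (3.78 times), Ccnd2 (3.63) and Cdk4 (2.80) were called higher, against 14.6% of genes, and Ccnd1 (0.557) lower, against 42.5%. In progenitor-like cells Ccnd2 (2.76 times), Cdk6 (2.64), Cdk4 (2.05) and Ccnd1 (1.75) were higher, against 8.09% of genes, and none of the 5 was among the 29.7% called lower. Some of these progenitor-like signs changed with the clustering, which also changed the class (1505 cells here, 970 with the members allowed in clustering). The log2 ratio of Cdk6 was below 0 under 4 alternatives (lowest -0.52, with the members allowed). That of Ccnd2 was below 0 under 2 (-0.17 with the members allowed and -0.0050 with 15 components). The log2 ratio of Ccnd1 was -0.030 without astrocyte-like comparison cells. In fibroblast-like cells Ccnd3 (1.90 times) was higher, against 11.8%, and Ccnd1 (0.360) and Ccnd2 (0.419) lower, against 19.1%. In astrocyte-like cells none of the 5 was among the 35.6% called higher, and Ccnd2 (0.101), Cdk6 (0.180), Cdk4 (0.264) and Ccnd1 (0.276) were among the 18.9% called lower.

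Because astrocyte-like cells are more numerous than all others together, they set most of these comparisons. With them left out of the comparison cells, 11641 genes could be tested. OPC-like cells were still called higher for Ccnd1 (7.39 times), as were 10.9% of these genes, and lower for Ccnd2 (0.161), as were 11.9%, and Cdk6 (0.394) was then also called lower. Neuroblast-like cells remained higher for Ccnd2 (3.54 times), against 6.97% of genes, and lower for Ccnd1 (0.197), against 15.9%, while Cdk4 (1.43) and Cdk6 (0.826) were not called. Cycling-like cells remained higher for Cdk6 (1.85 times) and Cdk4 (1.51), against 9.86% of genes, and lower for Ccnd1 (0.253), against 29%, and Ccnd2 (1.47) fell just under the fold limit. Fibroblast-like cells were called higher for Ccnd3 (2.15 times), against 17.1%, and lower for Ccnd1 (0.210), Ccnd2 (0.205) and Cdk4 (0.402), against 18.9%. None of the 5 was called in progenitor-like cells, where 5.03% of genes were called higher and 15.6% lower, and Ccnd1 was at 0.979 times and Ccnd2 at 1.26 times the level of the other cells.

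The make-up of the D-type cyclin UMIs separates the classes without reference to other genes. Shares are compared between classes and not between cyclins, since the 3′ ends of different genes may be captured unequally. In OPC-like cells Ccnd1 made up 54.5% (52.7 to 56.2%) of 3111 D-type cyclin UMIs, 56.3% in set 1 and 49.4% in set 2. In neuroblast-like cells it made up 0.389% and Ccnd2 99.3%, and the Ccnd2 share was 99.3% in each set. The Ccnd1 share was 1.68% in cycling-like, 4.51% in progenitor-like and 12.4% in astrocyte-like cells.

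Ccnd3 took its largest shares, 15.7% (11.2 to 21.0%) and 9.93%, in ependymal-like and astrocyte-like cells, apart from 4 of 24 UMIs in microglia-like cells. The summed level of the 3 cyclins ran from 418 CPM in astrocyte-like to 9970 CPM in neuroblast-like cells, with OPC-like cells at 1389 CPM. Among kinase UMIs the split was steadier: Cdk4 made up 97.0% in OPC-like, 96.5% in neuroblast-like, 93.7% in cycling-like and 89.6% in fibroblast-like cells.

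**Figure D2:**
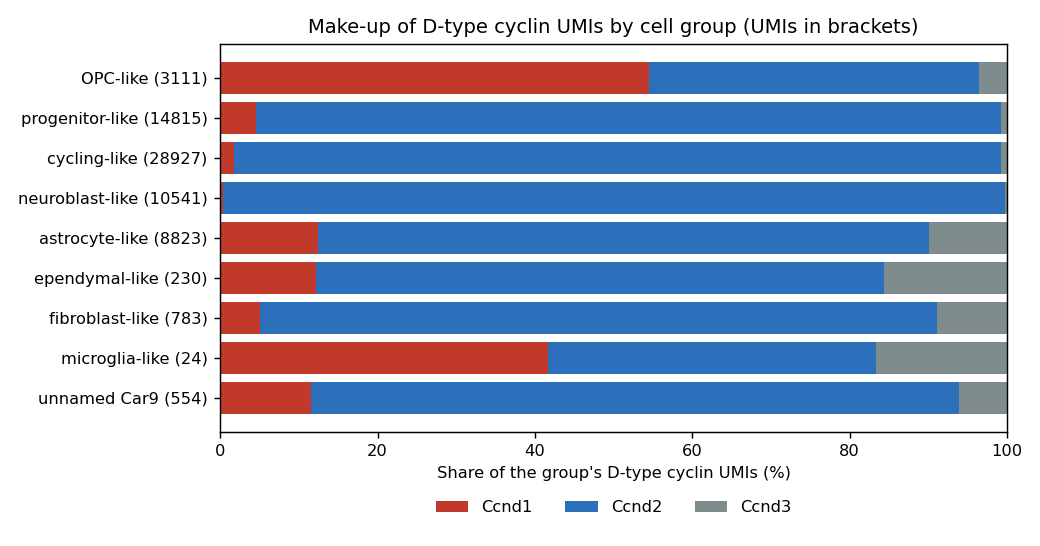
Share of Ccnd1, Ccnd2 and Ccnd3 among the D-type cyclin UMIs of 9 cell groups (percent of UMIs, UMIs in brackets). Ccnd1 fills 54.5% of the bar in OPC-like cells and 0.389% in neuroblast-like cells, and the microglia-like bar rests on 24 UMIs.

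Whether these patterns hold without clusters was examined with marker UMIs. The 518 cells with a UMI of Pdgfra, Sox10 or Gpr17, genes of the oligodendrocyte lineage, were at 545 CPM for Ccnd1 and 848 CPM for Ccnd2. The 2965 cells with a UMI of Dlx1, Dlx2, Dlx5, Dlx6 or Dlx6os1, genes of the interneuron lineage, were at 80.2 CPM for Ccnd1 and 4718 CPM for Ccnd2. Marker UMIs thus gave the same contrast as the clusters, with a smaller gap. These gate genes are also among the markers that named the OPC-like and neuroblast-like classes, and the cells are the same. The gates are therefore not an independent check of the clusters.

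Among cells with a UMI of a mitotic gene (Mki67, Top2a, Cdk1, Ube2c or Cenpf), the lineage markers divided the 2 cyclins further. The 241 cells that also had an oligodendrocyte-lineage UMI and no Dlx UMI were at 783 CPM for Ccnd1 (824 in set 1, 671 in set 2) and 770 CPM for Ccnd2. The 2180 with a Dlx UMI and no oligodendrocyte-lineage UMI were at 72.6 CPM for Ccnd1 (74.6 in set 1, 67.6 in set 2) and 4860 CPM for Ccnd2. Cdk4 differed less between these 2 gates, at 1040 against 1654 CPM, and Cdk6 was at 44.8 against 110 CPM. A mitotic UMI alone does not show that a cell was dividing. These crossed gates were chosen after the data were seen.

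**Figure D3:**
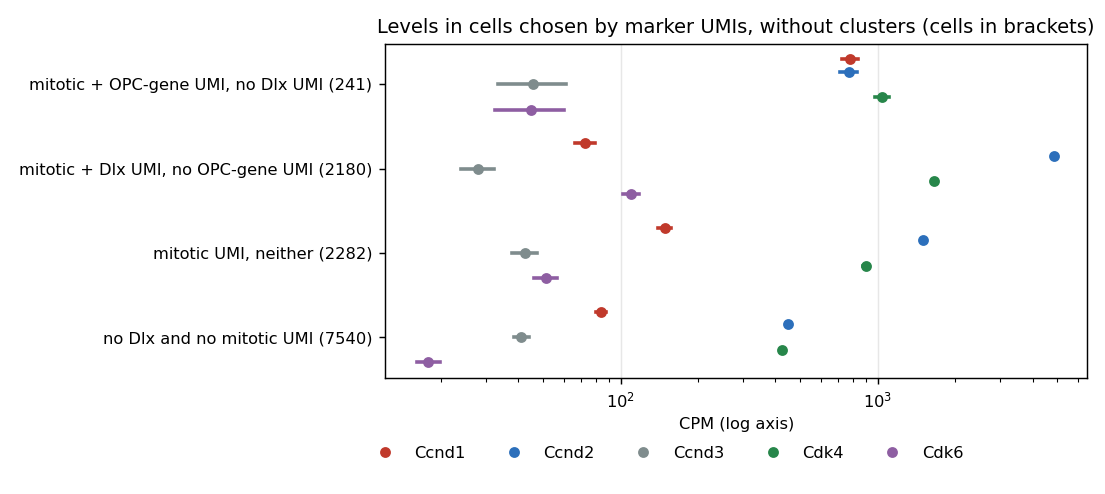
CPM (log axis) with 95% counting intervals of the 5 genes in cells chosen by marker UMIs. Among cells with a mitotic UMI, Ccnd1 was at 783 CPM with oligodendrocyte-lineage UMIs (marked OPC-gene) and 72.6 CPM with Dlx UMIs. Ccnd2 was at 770 and 4860 CPM in the same cells.

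Within OPC-like cells, Ccnd1 was higher in those with a mitotic UMI. The 390 OPC-like cells with a mitotic UMI were at 866 CPM for Ccnd1 (819 to 916) and the 296 without at 562 CPM (512 to 616). The order held in both sets, at 926 against 641 CPM in set 1 and 697 against 443 CPM in set 2. Ccnd2 was at 592 and 567 CPM in the same cells, with overlapping intervals, and Cdk4 at 1130 and 1070 CPM. Cells with a mitotic UMI were also deeper, with a median of 3423 against 2654.5 UMIs, and the part of depth was examined by thinning.

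With every cell thinned to 1500 UMIs (1270 shallower cells left out), OPC-like cells with no UMI of the 18 S phase and 18 G2 and M phase genes were at 378 CPM for Ccnd1 (304 to 466, 155 cells). Those with more S than G2 and M UMIs were at 904 CPM (157 cells) and those with more G2 and M UMIs at 1008 CPM (203 cells). The unthinned values were 399, 929 and 960 CPM. These are ranges of a score and not cell types, and 143 OPC-like cells with 1 UMI or a tie lay between them, at 601 CPM.

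Ccnd2 was higher with more S than with more G2 and M UMIs in progenitor-like, cycling-like and neuroblast-like cells. In progenitor-like cells it was at 1960 CPM with no phase UMI, 5134 CPM with more S UMIs and 2747 CPM with more G2 and M UMIs. In cycling-like cells the S and the G2 and M ranges were at 5153 and 3877 CPM. In neuroblast-like cells they were at 10710 CPM (341 cells) and 8183 CPM (40 cells). In OPC-like cells Ccnd2 was at 624 CPM (527 to 734) on the S side and 440 CPM (369 to 521) on the G2 and M side, and unthinned at 629 and 546 CPM. With no phase UMI it was at 516 CPM (428 to 617) there, and with 1 UMI or a tie at 681 CPM (575 to 800), so its S side was not apart from these. In astrocyte-like cells the S and the G2 and M ranges were at 474 and 468 CPM.

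Cdk6 in progenitor-like cells was at 45.9 CPM (25.7 to 75.7) with no phase UMI and 140 CPM (119 to 165) with more S UMIs. Cdk4 changed less over the same ranges, from 1226 to 1623 CPM. In astrocyte-like cells, 3646 of which had no phase UMI, the 3 ranges of Cdk4 lay between 346 and 442 CPM.

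**Figure D4:**
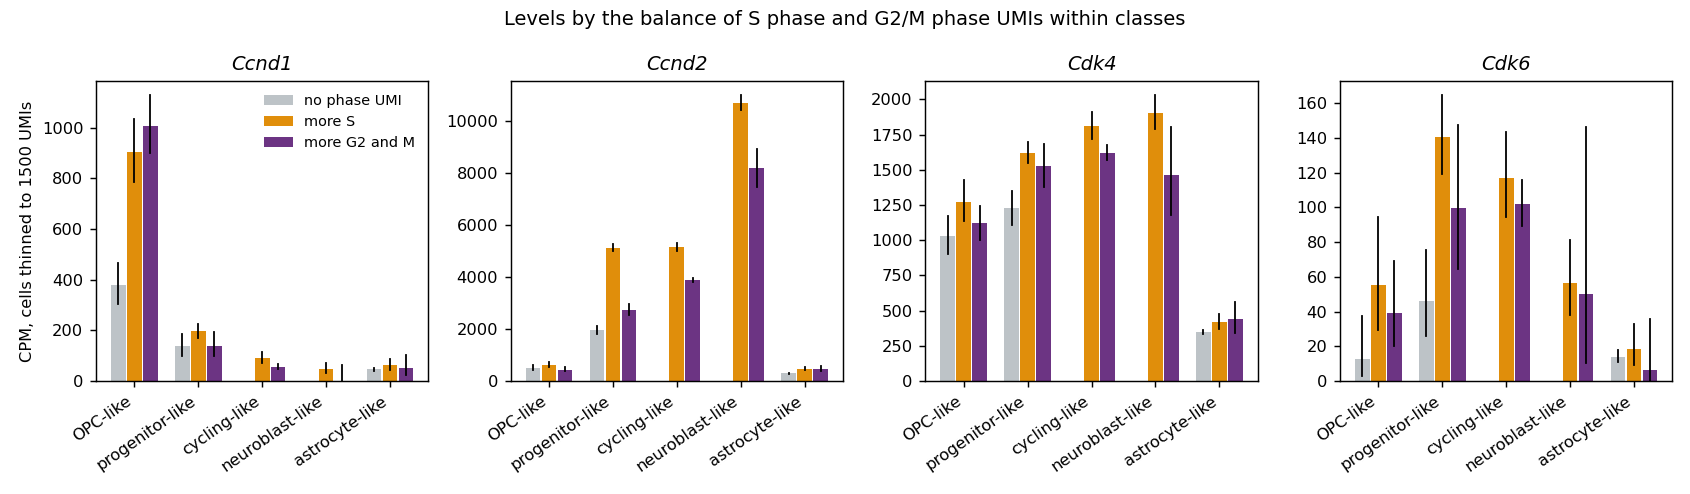
CPM in cells thinned to 1500 UMIs, by the balance of S phase against G2 and M phase UMIs within 5 classes, with 95% counting intervals. Ccnd1 in OPC-like cells is at 378, 904 and 1008 CPM and Ccnd2 in progenitor-like cells at 1960, 5134 and 2747 CPM; missing bars had too few cells, and Ccnd1 was at 0 in the 40 neuroblast-like cells with more G2 and M UMIs.

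Within OPC-like cells, the precursor receptor gene Pdgfra and Gpr17, a gene of cells that have begun to differentiate, divided the pooled cells further. Ccnd1 was at 900 CPM (810 to 997) in the 111 cells with Pdgfra and no Gpr17 UMI, and at 587 CPM (510 to 673) in the 100 cells with Gpr17 and no Pdgfra UMI. The 42 cells with both were at 1121 CPM, made of 1338 CPM in 29 cells of set 1 and 581 CPM in 13 cells of set 2. The 433 cells with neither were at 717 CPM. The division rests on set 1, where Pdgfra alone gave 971 CPM and Gpr17 alone 536 CPM; in set 2 the values were 740 CPM (597 to 908, 33 cells) and 721 CPM (562 to 912, 31 cells). Ccnd2 was at 663 CPM with Pdgfra alone and 454 CPM with Gpr17 alone.

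Single OPC-like cells often held both cyclins. In cells thinned to 1500 UMIs, 25.5% (22.2 to 29.0%) had UMIs of both Ccnd1 and Ccnd2, and the product of the single shares, 46.8% and 48.6%, is 22.8%. The product lies inside the interval. That interval treats the joint share alone and does not take the single shares as given. It therefore cannot decide whether the 2 cyclins occurred together more or less often than the product, and this was not tested. In unthinned cells 45.5% held both.

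The barcode sets differed most for Cdk6. In cycling-like cells it was at 90.5 CPM (82.4 to 99.2, 456 UMIs) in set 1 and 159 CPM (142 to 177, 325 UMIs) in set 2, a ratio of 1.75. For comparison, 5982 genes had at least 100 UMIs there, and 52 of them (0.869%) were at least 1.5 times as high in set 2, Cdk6 among them; this count uses the fold alone. The direction recurred in progenitor-like cells (91.7 and 127 CPM) and in neuroblast-like cells (50.4 and 117 CPM, 71 UMIs in all), whose intervals do not overlap between sets, and in astrocyte-like cells (13.4 and 17.3 CPM), whose intervals do overlap. In fibroblast-like cells it was the other way, at 68.2 and 46.8 CPM with overlapping intervals.

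Marker UMIs gave the same direction for Cdk6 without clusters. Cells with both a Dlx and a mitotic UMI were at 93.8 CPM in set 1 and 148 CPM in set 2, and cells with a mitotic and no Dlx UMI at 41.7 and 77.7 CPM. Cdk4 in cycling-like cells differed by 1.13 times (1593 and 1800 CPM) and Ccnd2 by 1.06 times (3920 and 4147 CPM). The sets were not tied to a library, so no condition can be read from the difference.

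**Figure D5:**
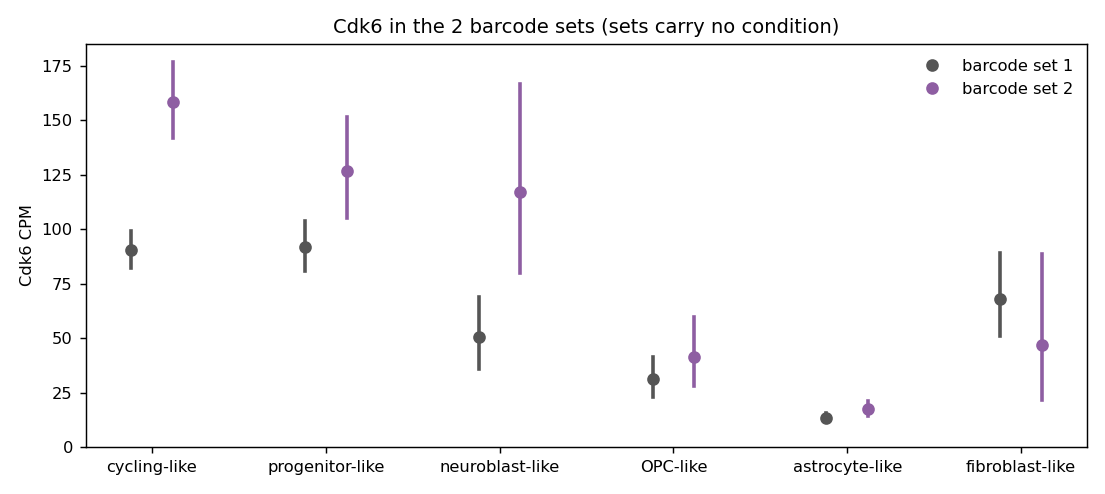
Cdk6 level (CPM, linear axis from 0) in barcode sets 1 and 2 within 6 classes, with 95% counting intervals. Cycling-like cells are at 90.5 and 159 CPM; the sets carry no condition.

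The rest of the pathway was described from 7 lists of regulators and targets and from the phase genes, by the same calls. Among 13 Rb and E2F genes, 8 were called higher in cycling-like cells (E2f1, E2f2, E2f3, E2f7, E2f8, Rbl1, Tfdp1 and Tfdp2), beside 14.6% of all genes. None was called lower there, beside 42.5%, and the median log2 ratio was 0.55 against -0.24 over all genes tested. In OPC-like cells E2f8 was higher, beside 7.38% of all genes, and Rb1, Rbl2 and E2f1 lower, beside 18.8%. The median there was -0.19 against -0.09. Without astrocyte-like comparison cells none of the 13 was called higher in OPC-like cells, beside 10.9% of genes. Tfdp2, E2f1, Rbl1, E2f2 and E2f3 were then called lower there, beside 11.9%. Rb1, the retinoblastoma protein's gene, was at 25.6 CPM in astrocyte-like cells, 9.38 CPM in OPC-like cells and 17.1 CPM in cycling-like cells.

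All 10 later cyclins and kinases, which drive S phase and mitosis, were called higher in cycling-like cells, beside 14.6% of all genes. Cdk1 and Ccnb1 are among the markers that named this class, and phase genes were not kept out of the clustering. These calls therefore partly restate how the class was formed. In OPC-like cells 4 of the 10 were called higher (Ccnb1, Ccnb2, Ccna2 and Cdc25c), beside 7.38% of all genes, with Ccnb1 at 179 CPM. The list's median log2 ratio was 2.62 in cycling-like cells and 0.43 in OPC-like cells, against all-gene medians of -0.24 and -0.09. In neuroblast-like cells 3 were higher (Cdk2, Cdc25a and Ccne2) and 3 lower, and all 18 S phase genes were higher while 11 of the 18 G2 and M phase genes were lower. Of all genes, 11.1% were called higher there and 25.4% lower. The medians of the S and of the G2 and M lists there were 2.02 and -0.81, against -0.25 over all genes tested, in the class where Ccnd2 stood highest. Without astrocyte-like comparison cells, none of the 10 later cyclins and kinases was called higher in OPC-like cells. Then 5 were called lower there (Cdk1, Cdc25c, Cdc25b, Cdc25a and Ccne2), beside 11.9% of genes, with a list median of -0.53. In cycling-like cells 7 of the 10 were still called higher, beside 9.86% of genes.

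Of 7 CDK inhibitors, Cdkn2b and Cdkn2c, INK4 genes whose products bind CDK4 and CDK6, were called lower in OPC-like cells, beside 18.8% of all genes. Cdkn1c, of the CIP/KIP family, was called higher there, beside 7.38%. Without astrocyte-like comparison cells none of these genes was called in OPC-like cells, and Cdkn2d and Cdkn1b were called lower, beside 11.9% of genes. In cycling-like cells, against all other kept cells, Cdkn2d, an INK4 gene, and Cdkn1b were higher, beside 14.6% of all genes. Cdkn2d was at 359 CPM there against 48.5 CPM in astrocyte-like cells. Cdkn2b showed the reverse, at 97.8 CPM in astrocyte-like and 10.3 CPM in cycling-like cells. Cdkn2b and Cdkn2a were called lower in cycling-like cells, beside 42.5%. Among 9 genes of D cyclin turnover, none was called higher in OPC-like or cycling-like cells, and 4 were higher in astrocyte-like cells (Cryab, Usp2, Fbxo4 and Fbxo31), beside 35.6% of all genes. The same 4 were called lower in cycling-like cells, beside 42.5% of all genes. Without astrocyte-like comparison cells, 3 of the 9 (Cryab, Fbxo31 and Fbxo4) were called higher in OPC-like cells, beside 10.9%.

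Of 6 genes of kinase activation and folding, Hsp90aa1, Cdc37 and Ccnh were called higher in cycling-like cells, beside 14.6% of all genes. In OPC-like cells none was called, where 7.38% of all genes were called higher and 18.8% lower. With astrocyte-like comparison cells left out, only Hsp90aa1 was called higher in cycling-like cells, beside 9.86% of genes. Of 13 measured upstream genes, Pdgfra and Myc were higher in OPC-like cells, Egfr and Mycn in progenitor-like cells, and none in neuroblast-like cells, where 9 were lower. Pdgfra and Egfr are among the markers used to name the OPC-like and progenitor-like classes, so their calls partly restate those names. In OPC-like cells the genes called higher were 2 of 13 beside 7.38% of all genes, and 4 were lower beside 18.8%. In progenitor-like cells they were 2 of 13 beside 8.09%, and 6 were lower beside 29.7%, while the 9 in neuroblast-like cells stood beside 25.4%. Mycn was at 51.6 CPM in progenitor-like, 23.6 CPM in cycling-like and 4.73 CPM in neuroblast-like cells, while Cdk4 was at 1468, 1652 and 1847 CPM in the same order. Among 13 other G1 or atypical cyclins and kinases, Cdk5 was the 1 called higher in OPC-like cells, beside 7.38% of all genes. Cdk8 was the 1 called lower there, beside 18.8%.

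Likeness of pattern was measured as Pearson's r of log2(CPM + 5) over the 11 clusters of at least 50 cells, for genes with at least 500 UMIs. The clusters share libraries but differ in depth, with medians of 2213.5 UMIs in the neuroblast-like and 4210.5 UMIs in the fibroblast-like cluster. The part of depth in r was not tested, and r is given as a description. For Ccnd1 the 5 nearest genes were Gpnmb (r = 0.89), Hsd17b12, Pllp, Rlbp1 and Cnp (0.78). For Ccnd2 they were Tubb3 (0.99), Cdca7, Gad2, Golm1 and Hat1, and for Cdk4 Snrpa1 (0.99), Fbl, Nmral1, Snrpd3 and Nasp. For Cdk6 they were Cdc37 (0.97), which encodes the HSP90 co-chaperone that delivers CDK4 and CDK6 for folding, Lyar, Isy1, Rbm10 and Dhx15, and for Ccnd3 Slc35f5 (0.93), Ano6, Pdxk, Tbc1d20 and Alg1.

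Among the 5 genes themselves, Ccnd2 and Cdk4 had r = 0.91, Cdk4 and Cdk6 0.89, and Ccnd2 and Cdk6 0.82 over the same clusters. Ccnd1 had r between -0.21 and 0.11 with the other members, and Ccnd3 between -0.49 and -0.09.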

How the data were processed

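Single cells were captured with the Chromium Single Cell 3′ kit, version 1, per the labels' protocols. The deposited values are whole-number UMI counts per gene and barcode, made with Cell Ranger 2.1.1 on mm10, per the submitters' processing notes; filters before deposit are not given in the sources used here. Barcodes with under 500 genes or over 10% mitochondrial UMIs were left out (1407 of 14685), as were 250 called doublets (Scrublet: 239 in set 1, and 11 in set 2, or 0.323%, so doublets may remain). The 13028 cells were clustered on 2000 variable genes without the 5 members, 30 components and 15 neighbours (Leiden, resolution 0.5; scanpy 1.11.5, Python 3.11.15). Clusters were named from at least 3 raised markers. CPM has exact Poisson intervals and shares have exact Clopper-Pearson intervals at 95%; log2 ratios add 5 CPM. PCR and capture errors are not covered. With 1 pooled sample no test was run. Likeness named the 5 genes of highest r. Calling was tested on simulated data. The members, lists and gates were chosen with earlier results of these data known. Alternatives changed cell filters, clustering, depth, the added CPM, the comparison cells and the fold. The values of 1 unnamed cluster are not reported here; its cells stay among the comparison cells.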

Additional observations from a re-analysis of the deposited data

Results flagged for a closer look

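The comparisons above leave out barcodes in which the 5 genes were still counted above the limit that a count of 0 allows. In the 1407 barcodes left out by the gene and mitochondrial limits (median 1084 UMIs), Ccnd1 was at 146 CPM (130 to 164) against 113 CPM in kept cells. Ccnd2 was at 466 CPM there against 1632, Ccnd3 at 26.3 against 38.9, Cdk4 at 304 against 787 and Cdk6 at 14.1 against 44.2 CPM.

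In the 250 called doublets (median 4328.5 UMIs), Ccnd1 was at 77.3 CPM (61.6 to 95.9), below the kept cells, and Ccnd2 at 2294 CPM (2204 to 2386), above them. Ccnd3 was at 40.1 CPM, Cdk4 at 869 CPM and Cdk6 at 61.5 CPM.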

How the results depend on the processing

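The log2 ratio of Ccnd1 in OPC-like cells (3.29) and those of Ccnd2 (1.85), Ccnd3 (-0.47), Cdk4 (1.48) and Cdk6 (1.75) in cycling-like cells, each to all other kept cells, kept their sign under every alternative run; the values below follow that order. They were 2.96, 1.18, -0.72, 1.09 and 1.45 at Leiden resolution 0.3, and 3.37, 1.67, -0.59, 1.41 and 1.59 at 0.8. With 15 components they were 3.39, 1.78, -0.59, 1.47 and 1.65, and with the members allowed in clustering 3.44, 1.88, -0.46, 1.5 and 1.79. With called doublets kept they were 3.31, 1.18, -0.70, 1.11 and 1.51, and with phase genes left out of clustering 3.28, 1.10, -0.81, 1.02 and 1.44. In both, and at resolution 0.3, the Hist1h1b-led cluster was unnamed, so fewer cells made up the cycling-like class. At resolution 0.3 the OPC-like class also had 1246 cells in place of 686. With no cell filter the ratios were 3.24, 1.58, -0.30, 1.34 and 1.72, in thinned cells 3.23, 1.69, -0.31, 1.39 and 1.56, and as a mean of per-cell CPM 3.16, 1.71, -0.41, 1.41 and 1.65. Set 1 alone gave 3.46, 1.80, -0.54, 1.45 and 1.59, and set 2 alone 2.85, 2.01, -0.29, 1.54 and 1.98. Adding 1 CPM gave 3.36, 1.86, -0.53, 1.48 and 1.88. Without astrocyte-like comparison cells they were 2.83, 0.56, -0.46, 0.60 and 0.83. Without the unnamed clusters, an alternative chosen after seeing the data, they were 3.37, 1.81, -0.49, 1.45 and 1.72.

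The sign of a called ratio reversed in 10 other cases, and the cause was not tested. In the clustering alternatives a class name did not always cover the same cells. Neuroblast-like cells numbered 460 in the main run, 181 with doublets kept and 1549, led by Mfng, without phase genes. Progenitor-like cells numbered 1505 in the main run, 970 with the members allowed, 1060 with 15 components, 598 at resolution 0.8 and 578 without phase genes. In progenitor-like cells Ccnd1 was at -0.030 without astrocyte-like comparison cells. Ccnd2 was at -0.17 with the members allowed and -0.0050 with 15 components. Cdk6 was at -0.16 at resolution 0.8, -0.52 with the members allowed, -0.20 without phase genes and -0.19 with 15 components. In neuroblast-like cells Ccnd1 was at 0.29 without phase genes, and Cdk6 at -0.071 with doublets kept and -0.26 without astrocyte-like comparison cells. Among ratios that were not called, 3 changed sign: Cdk4 in OPC-like cells (0.53) was at -0.29 without astrocyte-like comparison cells, and Cdk6 in fibroblast-like cells (0.50) at -0.33 without them and -0.35 in set 2 alone. At a fold of 2, genes called higher and lower numbered 483 and 1628 in OPC-like and 2817 and 1511 in astrocyte-like cells, and those called higher 1078 in cycling-like, 780 in neuroblast-like and 400 in progenitor-like cells. Resolution 0.3 gave no neuroblast-like or progenitor-like class. No paired analysis was possible because each condition has 1 library and its cells could not be told apart. Depth limits Ccnd3 and Cdk6 most, with 1492 and 1693 UMIs in all kept cells.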
